A study of Mus musculus with 43 samples.

Results

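The genes described are 35 members of sterol and fatty acid synthesis, chosen by symbol from a table of 54532 genes. They cover 19 enzymes of the cholesterol pathway and its geranylgeranyl branch, 5 regulators, 2 genes of sterol handling, 5 genes that build and lengthen fatty acid chains and 4 desaturases. Proximal tubules were dissected by hand from kidneys of untreated female C57BL/6 mice aged 6 to 8 weeks, with 2 to 5 tubules per sample. Their RNA was sequenced for the 3 successive parts of the tubule, called S1, S2 and S3. The groups used here were 6 libraries of female S1, 6 of female S2 and 7 of female S3. By the numbers in the titles, S1 came from animals 4 and 5, S2 from animals 1, 2 and 3, and S3 from animals 2, 3, 4 and 5, and the animals of S1 and S2 were different ones. Reading the title numbers as animals is an interpretation, since the labels do not spell it out.

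Each gene has 1 deposited value per segment, as TPM, the share of transcripts after division by their length, a level that can be compared between genes. No spread between libraries could be computed, no test was run, and the depth is unknown. Every difference below is therefore a description of these 3 columns. In samples of whole tubule pieces, fewer cells of a type and less RNA per cell cannot be told apart.

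Cholesterol is made from acetyl-CoA by way of mevalonate, squalene and lanosterol, and the same acetyl-CoA feeds the making of fatty acids, which are then lengthened and desaturated. Both branches are known targets of the SREBP transcription factors, which sit in the endoplasmic reticulum as inactive precursors. Scap escorts them to the Golgi, where proteases release the active part, and the Insig proteins hold Scap back when sterols are plentiful. In the kidney, proximal tubule cells carry large areas of brush border and basolateral membrane, of which cholesterol and unsaturated phospholipids are main constituents.

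The S1 and S3 markers followed the labels. Sums of 5 S1 markers, among them the glucose transporter Slc5a2, were 18372 TPM in S1, 2434 TPM in S2 and 34.3 TPM in S3. Sums of 7 S3 markers, among them Slc7a12, were 264, 6473 and 10346 TPM. Of 5 S2 markers, 4 were highest in S2. Slc22a7, an organic anion transporter, was at 0.7, 877 and 1155 TPM, highest in S3, and Slc22a8, another, was at 297, 349 and 0.7 TPM, so S2 is less clearly marked off. The 7 general proximal tubule markers were above 1 TPM throughout but had no common order. Miox was at 8516, 5441 and 529 TPM, and Aqp1 at 33, 383 and 561 TPM. They therefore give no common reference level for the 3 segments. Most markers of cells outside the tubule wall were highest in S2. The 8 endothelial markers summed to 60.1 TPM in S1, 595 TPM in S2 and 237 TPM in S3, and all 8 were highest in S2. The 8 immune markers summed to 55.6, 277 and 93 TPM, with 7 of 8 highest in S2 and Csf1r, at 0.5, 32 and 46.9 TPM, highest in S3. The 8 stromal markers summed to 2.5, 21.4 and 2.2 TPM, all highest in S2. Of other tubule types, 1 gene made most of each sum where that sum was highest. The thick ascending limb and distal markers summed to 2, 24.1 and 33.6 TPM, of which Umod was 0.2, 21.1 and 29.1 TPM, an order that genes high in S3 share. The collecting duct markers summed to 28.7, 6.6 and 0.6 TPM, of which Aqp3 was 28.3, 5.2 and 0.1 TPM. The thin limb markers summed to 20.5, 4.9 and 1.9 TPM, of which Akr1b3 was 20.4, 3.9 and 1.1 TPM. Genes high in S1 share these orders, and the part of these cell types in either set of genes was not tested.

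The genes of sterol and fatty acid synthesis did not move together along the tubule. Some enzymes were far lower in S1 than further down, led by the desaturase Scd1 and the demethylase Cyp51, while others on the same route were higher in S1. Of the 35 genes, 34 reached 1 TPM in at least 1 segment and were compared. Acacb stayed below it. Differences are of log2(TPM + 1), and a gene was counted when that difference was at least 1, which is 2-fold. By this count 16 of the 34 genes had a highest segment 2-fold or more above the lowest one (47.1%), against 33.3% of the 16053 genes compared. The highest value lay in S1 for 8 of the 16, in S3 for 7 and in S2 for 1. Among all genes past that threshold S1 was highest for 31.3%, S2 for 38.2% and S3 for 30.5%.

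Between S1 and S2, 6 of the 34 genes passed the threshold with S1 higher (17.6%), against 6.62% of all genes, and 7 were lower in S1 (20.6%), against 17.7%. Between S1 and S3, 7 were higher in S1 (20.6%), against 10.5% of all genes, and 7 were lower (20.6%), against 13.1%. Between S2 and S3 none of the 34 was higher in S2, where 8.74% of all genes were, and 1 (2.94%) was lower in S2, where 2.24% of all genes were. Most of all genes compared were likewise under 2-fold between S2 and S3. Below that threshold members still differed, with S2 minus S3 at 0.88 for Insig1 and -0.84 for Elovl6. The median difference of the 34 genes was -0.01 for S1 minus S2, beside -0.18 for all genes compared. It was -0.13 for S1 minus S3, beside -0.01, and -0.10 for S2 minus S3, beside 0.12.

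**Figure D1:**
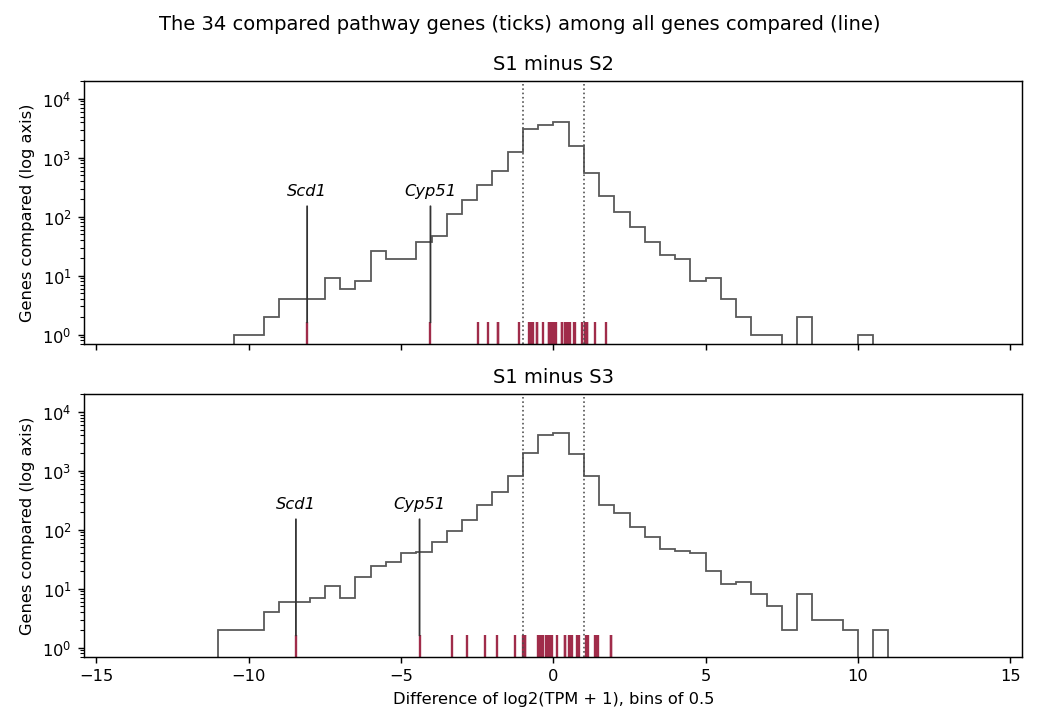
Difference of log2(TPM + 1) for S1 minus S2 (top) and S1 minus S3 (bottom), with the number of genes compared in bins of 0.5 as a line on a log axis and the 34 compared pathway genes as ticks. Dotted lines mark 2-fold. Scd1 at -8.08 and -8.45 and Cyp51 at -4.03 and -4.39 lie far to the left, while Insig1 at 1.90 lies furthest right in the lower panel.

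The choice of scaling bears on the contrast of S1 with S2. Gpx3, Kap and the mitochondrially encoded transcripts take large and unequal parts of the TPM total. Without them, 3 pathway genes in place of 6 passed the threshold with S1 above S2. That is 8.82% of the 34, against 5.52% of all genes under this setting, so most of the gap between 17.6% and 6.62% was gone. Sc5d, Insig1 and Fads1 then had differences of 0.998, 0.94 and 0.95. That removal shifted the median of all genes by -0.16 for S1 minus S2. Quantile normalization shifted it by 0.27, and by -0.17 for S2 minus S3, and changed the split among all genes from 1062 higher and 2840 lower in S1 to 1471 and 1853. For S2 minus S3 the split was 890 higher and 520 lower in S2 with quantile normalization, and 1403 and 359 as deposited.

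The mevalonate arm, which makes farnesyl pyrophosphate from acetyl-CoA, was even along the tubule except for its last enzyme. Fdps, farnesyl pyrophosphate synthase, stood at 43.1 TPM in S1, 12.3 TPM in S2 and 11.0 TPM in S3. It was 3.50-fold higher in S1 than in S2 (difference 1.73) and 3.92-fold higher than in S3 (1.88), the only one of the 8 genes of this arm to pass 2-fold. Hmgcs1, the cytosolic HMG-CoA synthase that commits carbon to mevalonate, leaned the other way, with 119, 187 and 226 TPM. Mvd, the decarboxylase that yields isopentenyl pyrophosphate, had the same order, with 44.6, 64.8 and 86.4 TPM. Their S1 minus S3 differences of -0.93 and -0.94 stopped just short of 2-fold. Hmgcs1 and Mvd, which act upstream of Fdps, therefore had the opposite order to it.

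Acat2, the cytosolic thiolase that joins the first acetyl-CoA units, was at 87.6 TPM in S1, 63.6 TPM in S2 and 59.6 TPM in S3. The mevalonate kinases were low and flat. Mvk was at 10.1, 7.6 and 9.1 TPM, and Pmvk at 15.8, 14.8 and 19 TPM. Idi1, the isomerase that precedes Fdps, was the least abundant of the 19 pathway genes, with 2.5, 1.5 and 1.3 TPM, where rounding to 1 decimal limits any ratio. Ggps1, which draws farnesyl pyrophosphate towards protein prenylation, was at 18.4, 14.8 and 13.8 TPM. All 5 of these genes differed less than 2-fold between segments.

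From squalene to lanosterol the neighbouring enzymes parted. Sqle, squalene epoxidase, the oxygen-requiring step that follows squalene synthesis, was at 13.6 TPM in S1, 50.6 TPM in S2 and 102 TPM in S3. Its S1 minus S2 difference was -1.82 and its S1 minus S3 difference -2.82, with S3 at 7.51 times the S1 level. Its S2 minus S3 difference was -1, exactly 2-fold, and it was the only gene of the 34 to pass the threshold between these segments. That difference was -0.91 with quantile normalization and -0.93 without Gpx3, Kap and the mitochondrially encoded genes, under the threshold, while with pseudocount 0.1 Insig1 and Scd2 also passed it, both higher in S2. Lss, lanosterol synthase, which cyclises the product of Sqle, ran the opposite way, with 13.2, 6.4 and 4.1 TPM. It was 3.22-fold higher in S1 than in S3 (difference 1.48). The ratio of Sqle to Lss was therefore 1.03 in S1, 7.91 in S2 and 24.9 in S3. Fdft1, squalene synthase, was at 12.7, 7.3 and 8.5 TPM, under 2-fold. In RefSeq's coordinates Fdft1 overlaps 774 bases of Ctsb, a lysosomal protease gene at 1322, 318 and 275 TPM, and the protocol marks no strand. What Ctsb reads add to the Fdft1 value was not tested.

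Lanosterol to cholesterol held the sharpest contrast of the sterol route. Cyp51, the lanosterol demethylase, a cytochrome P450 of the endoplasmic reticulum, was at 15.6 TPM in S1, 271 TPM in S2 and 348 TPM in S3. S1 was the low segment, with S2 17.4-fold and S3 22.3-fold above it. The S1 minus S2 difference was -4.03 and the S1 minus S3 difference -4.39, place 165 from the lowest of the 16053 genes. Cyp51 ranked 5193 among the 12174 genes of at least 1 TPM in S1, and 403 among 12873 in S3. Ebp, the isomerase that shifts the double bond of the sterol ring, behaved alike at a smaller scale, with 45.9, 166 and 167 TPM. Ebp had an S1 minus S2 difference of -1.83 and an S2 minus S3 difference of -0.01.

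Around these enzymes, 3 others were higher in S1. Msmo1, the methylsterol oxidase that follows Cyp51 and Tm7sf2, was at 38.0 TPM in S1, 14.2 TPM in S2 and 16.7 TPM in S3. Nsdhl, the dehydrogenase that removes the oxidised methyl carbon, was at 65.5, 29.7 and 24.9 TPM. Sc5d, the sterol desaturase that acts on the product of Ebp, was at 45.5, 20.8 and 16.3 TPM. Each was more than 2-fold higher in S1 than in either later segment, with S1 minus S3 differences of 1.14, 1.36 and 1.43. The ratio of Ebp to Sc5d was 1.01 in S1, 7.98 in S2 and 10.3 in S3. That of Cyp51 to Msmo1 was 0.411, 19.1 and 20.8. Ebp and Sc5d, at like levels in S1, thus stood far apart in both later segments.

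The rest of this stretch was flat. Tm7sf2, a sterol reductase, was at 31.8 TPM in S1, 26.2 TPM in S2 and 32.7 TPM in S3. Hsd17b7, the ketosteroid reductase that completes demethylation, was at 10.5, 11.8 and 15.4 TPM. Dhcr7, the reductase at the end of one of the closing routes to cholesterol, was at 6.2, 6.8 and 7.3 TPM. None of the 3 passed 2-fold in any contrast.

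Summed over the 18 enzymes that lead to cholesterol, leaving out Ggps1, the level was 621 TPM in S1, 963 TPM in S2 and 1156 TPM in S3. The median enzyme was at 23.8, 17.8 and 17.9 TPM, so the sum was highest in S3 and the median in S1. Cyp51, Hmgcs1 and Ebp had the highest levels of the 18 in S2 and in S3. They were picked from these same values, so lower later sums without them follow from that choice. Sqle, at 13.6, 50.6 and 102 TPM, was kept. Without them the other 15 enzymes summed to 441 TPM in S1, 338 TPM in S2 and 415 TPM in S3. Their median was 15.8, 14.2 and 16.3 TPM, so for these 15 the sum was highest in S1 and the median in S3, and neither order held for both sets of enzymes. The plot of the pathway in order of its steps shows this alternation.

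**Figure D2:**
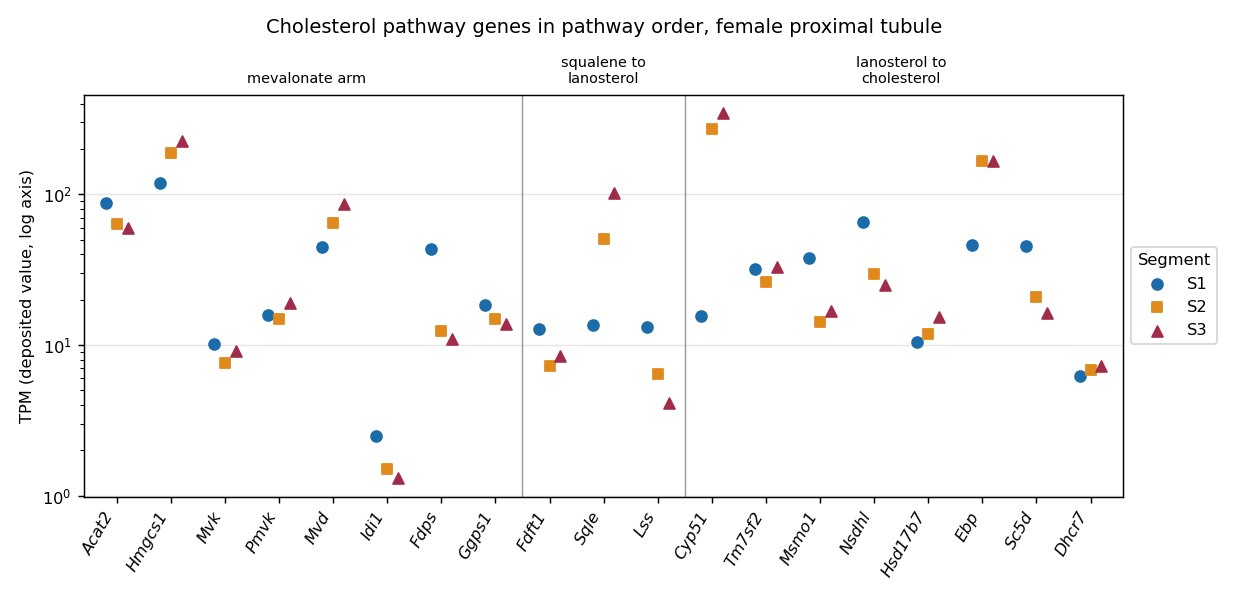
TPM on a log axis for the 19 pathway genes in pathway order, with S1 as circles, S2 as squares and S3 as triangles, 1 deposited value each. Cyp51, Sqle and Ebp have their circle lowest, whereas Fdps, Lss, Msmo1, Nsdhl and Sc5d have it highest.

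Because enzymes taken to be under the same regulator had opposite orders, the promoters of 5 of them are shown, from RefSeq sequence of GRCm38.p6, the assembly that mm10 names. Cyp51 and Ebp were low in S1, and Nsdhl and Sc5d were high in S1. Among the members with a promoter sequence, Hmgcs1 held the only match to the sterol regulatory element core as spelled below. Other spellings of the element were not searched, so a window without a match is not shown to lack it. They were picked with their values in view. Each window runs from 250 bases before to 50 bases after the gene's start, 5′ to 3′ on the gene's strand. Capitals mark matches on either strand to the sterol regulatory element core TCACNCCAC, the E-box CACGTG, the NF-Y box CCAAT and the Sp1 box GGGCGG, where adjoining matches run together. The windows lie at chr5:4104648-4104947 on the minus strand, chrX:8193463-8193762 on the minus strand, chrX:72918271-72918570 on the plus strand, chr9:42264251-42264550 on the minus strand and chr13:119690101-119690400 on the plus strand.
Cyp51: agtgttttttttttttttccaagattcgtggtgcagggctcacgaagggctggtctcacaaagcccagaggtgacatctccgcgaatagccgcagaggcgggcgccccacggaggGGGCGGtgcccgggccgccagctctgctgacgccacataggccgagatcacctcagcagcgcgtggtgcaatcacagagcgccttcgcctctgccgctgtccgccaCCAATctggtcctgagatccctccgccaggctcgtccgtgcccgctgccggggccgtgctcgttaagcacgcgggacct
Ebp: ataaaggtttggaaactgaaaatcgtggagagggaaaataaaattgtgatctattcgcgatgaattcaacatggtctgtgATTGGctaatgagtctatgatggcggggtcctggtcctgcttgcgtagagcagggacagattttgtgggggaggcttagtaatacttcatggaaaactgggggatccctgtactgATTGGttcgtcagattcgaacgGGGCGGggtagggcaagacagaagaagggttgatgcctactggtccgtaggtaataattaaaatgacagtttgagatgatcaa
Nsdhl: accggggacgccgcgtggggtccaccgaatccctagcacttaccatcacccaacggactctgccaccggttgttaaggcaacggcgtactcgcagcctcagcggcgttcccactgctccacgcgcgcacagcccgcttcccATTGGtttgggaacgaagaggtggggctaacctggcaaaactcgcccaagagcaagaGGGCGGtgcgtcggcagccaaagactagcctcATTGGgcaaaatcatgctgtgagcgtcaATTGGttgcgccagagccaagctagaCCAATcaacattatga
Sc5d: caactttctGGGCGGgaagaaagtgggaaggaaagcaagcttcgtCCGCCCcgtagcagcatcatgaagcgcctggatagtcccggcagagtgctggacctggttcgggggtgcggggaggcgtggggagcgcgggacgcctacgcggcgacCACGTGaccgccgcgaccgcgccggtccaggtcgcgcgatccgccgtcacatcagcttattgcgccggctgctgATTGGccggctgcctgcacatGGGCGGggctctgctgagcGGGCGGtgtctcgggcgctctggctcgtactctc
Hmgcs1: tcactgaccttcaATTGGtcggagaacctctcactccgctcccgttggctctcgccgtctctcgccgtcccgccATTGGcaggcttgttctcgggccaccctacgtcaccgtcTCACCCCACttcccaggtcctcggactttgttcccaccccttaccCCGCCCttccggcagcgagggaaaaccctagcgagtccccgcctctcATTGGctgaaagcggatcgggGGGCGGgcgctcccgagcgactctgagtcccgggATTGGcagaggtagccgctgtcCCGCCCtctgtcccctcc

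The Hmgcs1 match begins 137 bases before the start. The Cyp51 window holds 1 NF-Y box and 1 Sp1 box, and that of Ebp 2 NF-Y boxes and 1 Sp1 box. Nsdhl has 4 NF-Y boxes and 1 Sp1 box, and Sc5d has 1 E-box, 1 NF-Y box and 4 Sp1 boxes. NF-Y and Sp1 boxes were thus in the windows of all 4 of these genes, and the E-box was in that of Sc5d alone among them. Windows were at hand for 28 of the 35 members, some with several starts, 36 windows in all. Fads1, Fdft1, Fdps, Scd1, Scd2, Sqle and Stard4 had none in the table used.

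The NF-Y box, bound by a factor known to act beside the SREBPs, was in 24 of the 36 windows (66.7%), against 37.4% of all 32851 promoters and 38.2% of the 21263 of protein-coding genes. The Sp1 box was in 25 (69.4%), against 35.7% and 46.2%. The E-box, which SREBPs can also bind, was in 7 (19.4%), against 7.15% and 7.84%. The sterol regulatory element core was in 1 (2.78%), against 1.24% and 1.19%. By direction, the NF-Y box was in 4 of the 5 genes with a window that were 2-fold lower in S1 than in S3. It was in 6 of the 6 that were 2-fold higher and in 13 of the 17 under 2-fold, against 41.1% of all genes with a promoter. The Sp1 box was in 3 of the 5, 6 of the 6 and 12 of the 17, against 38.2% of all genes. The E-box was in 0 of the 5, 2 of the 6 and 4 of the 17, against 8.09%. With so few genes these counts are given as they are. These are letter matches and describe the windows only.

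Of the 5 regulators, 2 were at least 2-fold apart between segments. Srebf2, which encodes SREBP2, the factor that mainly drives sterol genes, was at 35.7 TPM in S1, 21.8 TPM in S2 and 16.3 TPM in S3. It was 2.19-fold higher in S1 than in S3 (difference 1.09), and 0.69 above S2 on the same scale. Srebf1, which encodes SREBP1 and mainly drives fatty acid genes, was at 12.6, 13.9 and 9.4 TPM, under 2-fold. Neither factor's transcript thus had the order of Cyp51, Sqle or Scd1. Scap, the escort protein, did have that order, with 22.3, 37.5 and 45.5 TPM. Its S1 minus S3 difference was -0.997, just short of 2-fold. With pseudocount 0.1 it was -1.03, with median-of-ratios scaling -1.06, with quantile normalization -1.01, and with Gpx3, Kap and the mitochondrially encoded genes removed -1.03, each of them past the threshold.

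Insig1, the retention protein that SREBPs themselves induce, was at 17.3 TPM in S1, 8.0 TPM in S2 and 3.9 TPM in S3. It was 2.16-fold above its S2 level in S1, just past the threshold, and 4.44-fold above its S3 level (difference 1.90), the greatest S1 minus S3 difference on the positive side among the members. Insig2, its homologue, was level at 42.0, 43.0 and 45.4 TPM. The ratio of Insig1 to Insig2 was accordingly 0.412 in S1, 0.186 in S2 and 0.0859 in S3. Scap stood to Insig1 in ratios of 1.29, 4.69 and 11.7. As transcripts, the escort and its inducible anchor had opposite orders along the tubule.

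The 2 genes of sterol handling also crossed. Soat1, which esterifies cholesterol for storage, was at 10.8 TPM in S1, 16.1 TPM in S2 and 27.1 TPM in S3. The S1 minus S3 difference was -1.25, so Soat1 was among the 7 genes 2-fold lower in S1. Stard4, a sterol carrier between membranes, was at 33.7, 22.6 and 19.2 TPM, with an S1 minus S3 difference of 0.78. The ratio of Soat1 to Stard4 was 0.320 in S1, 0.712 in S2 and 1.41 in S3.

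Of the 4 compared genes that build and lengthen fatty acids, Fasn and Elovl6 were at least 2-fold lower in S1. Fasn, fatty acid synthase, the enzyme that assembles palmitate, was at 3.9 TPM in S1, 20.5 TPM in S2 and 22.3 TPM in S3. S2 was 5.26-fold and S3 5.72-fold above S1, with differences of -2.13 for S1 minus S2 and -2.25 for S1 minus S3. Elovl6, the elongase that carries palmitate to stearate, was at 7.0, 43.3 and 78.4 TPM, 11.2-fold higher in S3 than in S1 (difference -3.31). Elovl5, which lengthens polyunsaturated chains, differed little, with 36.5, 47.0 and 49.9 TPM. Elovl6 was thus far below Elovl5 in S1 (ratio 0.192), near it in S2 (0.921) and above it in S3 (1.57).

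The acetyl-CoA carboxylases, which make the malonyl-CoA that Fasn uses, were scarce throughout. Acaca was at 1.0 TPM in S1, 2.5 TPM in S2 and 1.6 TPM in S3. Acacb, the form tied to the mitochondrial surface, was at 0.2, 0.7 and 0.6 TPM. Both peaked in S2, where the endothelial markers were also highest (60.1, 595 and 237 TPM summed), and the part of other cell types in these low values was not tested. With pseudocount 0.1 the S1 minus S2 difference of Acaca was -1.24 in place of -0.81.

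The desaturases held the widest difference of the 35 genes. Scd1, stearoyl-CoA desaturase, which puts the first double bond into stearate and palmitate to form oleate and palmitoleate, was at 0.3 TPM in S1, 352 TPM in S2 and 454 TPM in S3. It was near absent from S1 and the most abundant of the 35 genes in both later segments, ranking 367 among 15121 genes of at least 1 TPM in S2 and 310 among 12873 in S3. The S1 minus S2 difference was -8.08 and the S1 minus S3 difference -8.45, place 12 and place 17 from the lowest of 16053 genes. Since 0.3 TPM is rounded to 1 decimal, no ratio is given. In GRCm38.p6, Scd1 spans bases 44394450 to 44407709 of chromosome 19.

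Its neighbour Scd2, the isoform known best from brain, at 44293676 to 44306864 on the same chromosome, was at 0.1 TPM in S1, 1.4 TPM in S2 and 0.4 TPM in S3. It entered the comparison through S2 alone, where the stromal markers were highest too (2.5, 21.4 and 2.2 TPM summed), whose part in it was not tested. The Scd genes are close in sequence and no source used here says how reads shared among them were assigned, so the low Scd2 values beside abundant Scd1 are uncertain. Fat cells also express Scd1 strongly. Adipoq was listed at 0 in all 3 segments and Plin1 was at 0.1, 0.4 and 0.1 TPM. Cidec, a lipid droplet gene, was at 0.1, 1.7 and 4.7 TPM, the same order as Scd1. Of the 6 adipose markers, the other 5 were below 1 TPM in every segment, and the 6 together summed to 0.7, 2.9 and 5.1 TPM. The part of fat cells in the Scd1 values was not tested.

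The front-end desaturases, which work on polyunsaturated chains, did not share that pattern. Fads1 was at 78.5 TPM in S1, 37.5 TPM in S2 and 43.2 TPM in S3, 2.09-fold higher in S1 than in S2 (difference 1.05) and 0.85 above S3 on the log2 scale. Fads2 was nearly level, with 113, 111 and 126 TPM. The ratio of Fads1 to Fads2 was 0.698 in S1, 0.338 in S2 and 0.343 in S3.

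**Figure D3:**
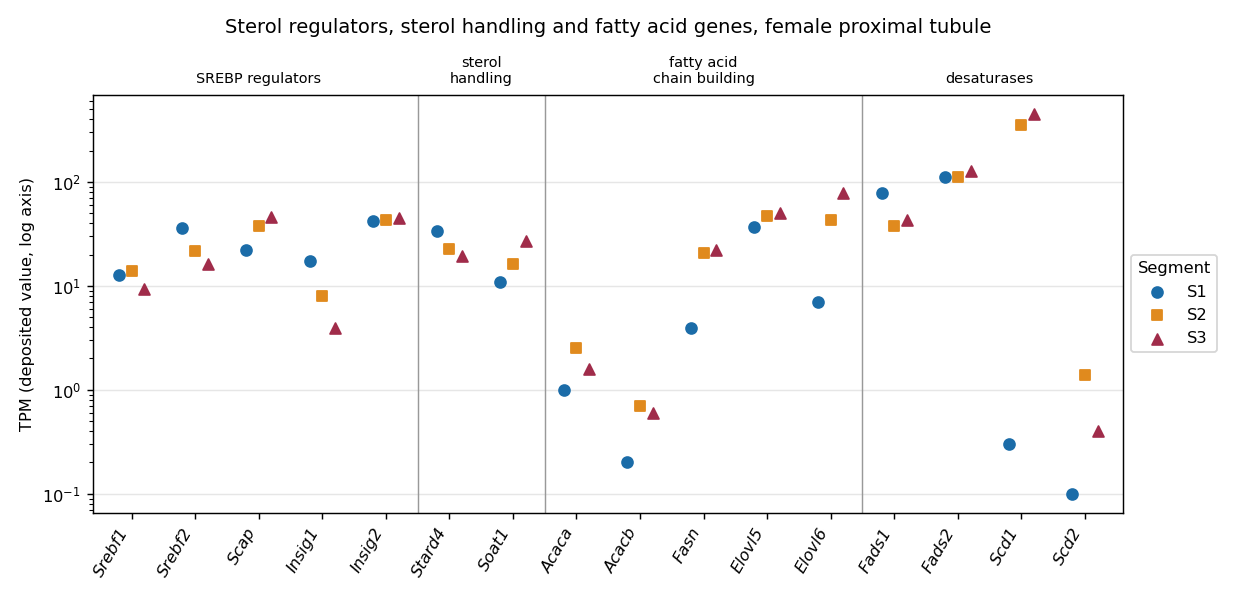
TPM on a log axis for the regulators, the genes of sterol handling, the chain-building genes and the desaturases, with S1 as circles, S2 as squares and S3 as triangles. Scd1 spans 0.3 to 454 TPM and Elovl6 and Fasn also have S1 lowest, while Insig1 and Srebf2 have S1 highest and Insig2 and Fads2 hardly vary.

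Along the tubule, 14 of the 35 genes were ordered S1 below S2 below S3, 10 had the reverse order, 7 were lowest in S2 and 4 were highest in S2. For the 14 genes that were 2-fold apart between S1 and S3, the place of S2 was read on the log2 scale, as its distance from S3 over the distance from S1 to S3. It is 0 at the S3 level and 1 at the S1 level, with a median of 0.207. Scd1 (0.0435), Fasn (0.0516), Fdps (0.0790), Cyp51 (0.0815) and Ebp (0.0051) had places near 0. A wide difference between S1 and S3 makes this place small. Scd1 and Cyp51 still had S2 minus S3 differences of -0.37 and -0.36. Insig1 (0.461), Srebf2 (0.367), Lss (0.364) and Sqle (0.354) lay between the ends. Soat1, at 0.572, was the only one nearer S1. Msmo1, at -0.193, was lower in S2 than in either end. S2 shares animals 2 and 3 with S3 and none with S1, and the part of the animals in these places was not tested.

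**Figure D4:**
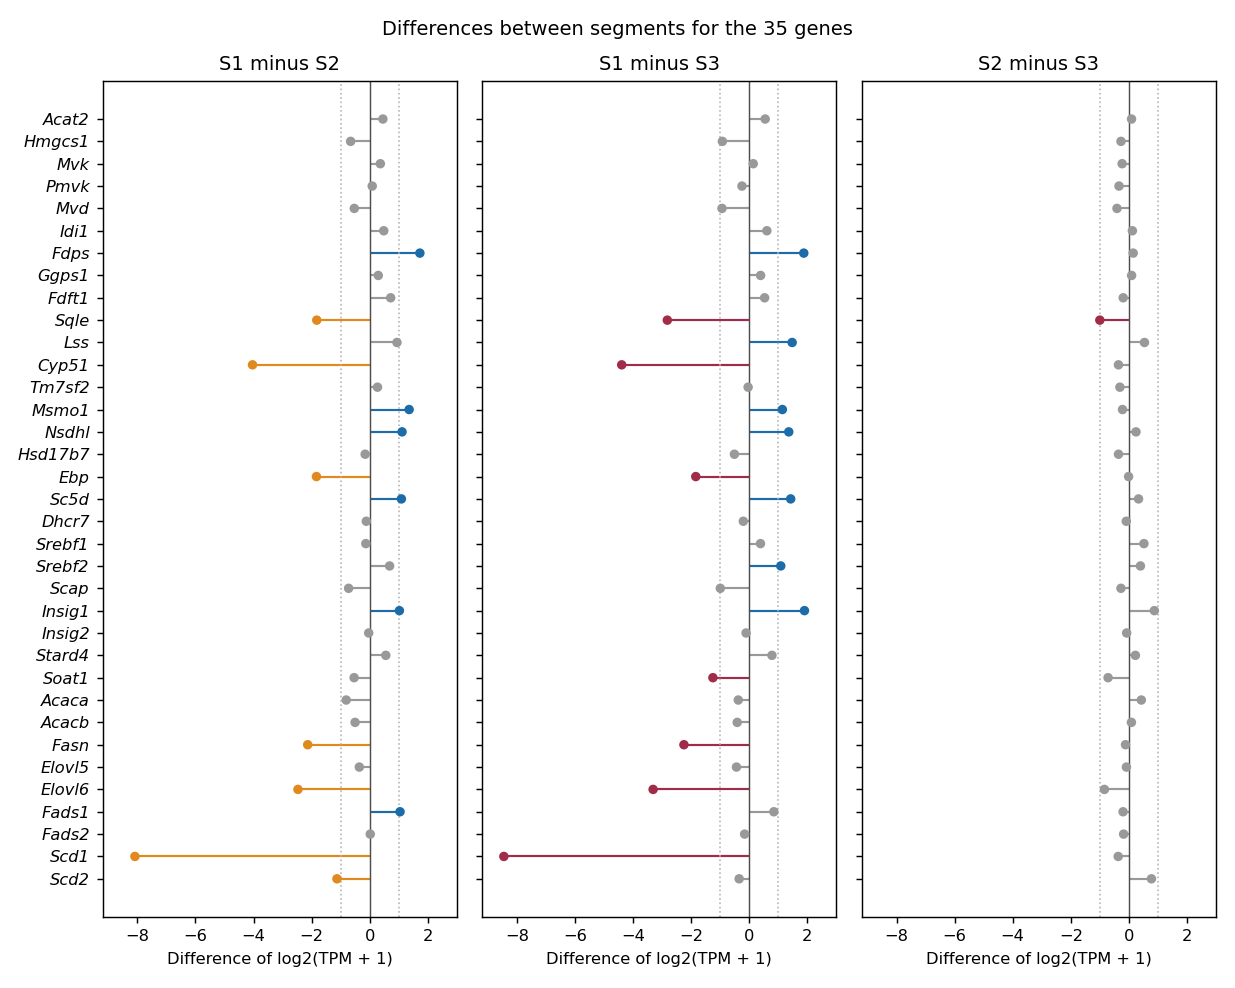
Differences of log2(TPM + 1) for S1 minus S2, S1 minus S3 and S2 minus S3 for the 35 genes in pathway order, with dotted lines at 2-fold and colour for the higher segment (blue for S1, orange for S2, red for S3) where the threshold is passed. Coloured points lie on both sides in the first and second panels, and Sqle, at -1, is the only coloured point in the third.

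Other genes of sterol metabolism, outside the 35, were taken from lists of the pathways. A further list held 8 genes of sterol synthesis and its electron supply. By the same threshold, S1 was above S2 in 1 (12.5%, all genes 6.62%) and below it in 2 (25%, all genes 17.7%). S1 was above S3 in 4 (50%, all genes 10.5%) and below it in 2 (25%, all genes 13.1%). Por, the reductase that passes electrons to Cyp51 and Sqle, had their order, with 180 TPM in S1, 496 TPM in S2 and 795 TPM in S3. Cyb5b, a cytochrome b5, and Cyb5r3, the reductase that feeds the b5 pathway used by sterol and fatty acid desaturases, had the reverse order. Cyb5b was at 165, 62.0 and 40.9 TPM and Cyb5r3 at 187, 116 and 80.2 TPM. Cyb5a, a more abundant cytochrome b5 of this list, did not share that order. It was at 1020, 1936 and 1561 TPM, lowest in S1 and under 2-fold in each contrast. None of the 10 genes of the isoprenoid branches, which lead to ubiquinone, dolichol and prenylated proteins, passed 2-fold in any contrast. Of all genes compared, 33.3% passed it in at least 1.

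The list of SREBP processing and turnover had 13 genes. Here S1 was above S2 in 1 (7.69%, all genes 6.62%) and below it in none (all genes 17.7%). S1 was above S3 in 1 (7.69%, all genes 10.5%) and below it in 1 (7.69%, all genes 13.1%). The proteases that release the SREBPs were flat. Mbtps1 was at 23.7, 26.9 and 27.4 TPM, and Mbtps2 at 2.3, 3.0 and 2.1 TPM.

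Sterol uptake and lysosomal export had 13 genes. Of these, S1 was above S2 in 1 (7.69%, all genes 6.62%) and below it in 2 (15.4%, all genes 17.7%). S1 was above S3 in 1 (7.69%, all genes 10.5%) and below it in 3 (23.1%, all genes 13.1%). Lipa, the lysosomal acid lipase that frees cholesterol from its esters, was at 224 TPM in S1, 39.8 TPM in S2 and 0.8 TPM in S3 (S1 minus S3 difference 6.96). Gramd1b, which moves cholesterol from the plasma membrane to the endoplasmic reticulum, was the reverse, with 34.5, 115 and 249 TPM. Scarb1, a lipoprotein receptor, was at 1.2, 14.1 and 7.7 TPM, and Stard3, a sterol carrier of late endosomes, at 18, 30.9 and 46.5 TPM. Scarb1 was highest in S2, as were the endothelial markers (60.1, 595 and 237 TPM summed), whose part in it was not tested. Lipa thus had its high end in S1, and Gramd1b and Stard3 had theirs in S3.

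The list of oxysterol sensing and sterol efflux had 11 genes. In it S1 was above S2 in 2 (18.2%, all genes 6.62%) and below it in 2 (18.2%, all genes 17.7%). S1 was above S3 in 4 (36.4%, all genes 10.5%) and below it in 2 (18.2%, all genes 13.1%). Cyp27a1, the mitochondrial enzyme that makes oxysterol from cholesterol, was at 69.8 TPM in S1, 35 TPM in S2 and 9.5 TPM in S3. Nr1h3, which encodes the oxysterol receptor LXR alpha, an activator of Scd1 and Srebf1 in mouse liver, was at 51.4, 91.2 and 129 TPM, with an S1 minus S3 difference of -1.31. Its paralogue Nr1h2 was level, with 51.8, 53.9 and 59.6 TPM.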

How the data were processed

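Per the labels' protocols, cDNA was made from the RNA of 2 to 5 tubules with an ultra-low-input kit in 10 to 12 PCR cycles, tagmented, and sequenced in read pairs, with no strand marking or molecular identifiers named. Per the submitters' processing notes, STAR, RSEM and build mm10 were used for the series. Which step made the expression table, with which annotation, and how a segment's libraries were combined are not given in the sources used here. Deposited by the authors were TPM values, 1 value per gene and segment, to 1 decimal. TPM keeps no depth, so no counting interval or floor was computed.

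Of 8 value columns, 3 belong to the female RNA-seq groups. A further 5 have no labelled group of RNA-seq samples and were not used here, nor was the ATAC-seq. Genes of at least 1 TPM in at least 1 segment were compared (16053 of 54532) on log2(TPM + 1), a pseudocount of 1, which understates the change of low genes. A difference of at least 1 was counted. Ratios of TPM were formed only from values of at least 1. The members and lists were chosen with earlier results of these data known. All 35 members are described. Other list genes are named where 2-fold between any segments with at least 10 TPM in the higher, at most 3 per list and direction by size. A few genes that meet it are left out of the text. Mbtps1, Mbtps2, Nr1h2 and Cyb5a do not meet it and were named after their values were seen. For a list gene with several rows, the row with the higher mean was taken. Coordinates and promoters are RefSeq's (GRCm38.p6), and all 35 symbols matched. The code, tested on simulated data, ran in Python 3.11.15 with pandas 2.3.3 and NumPy 2.4.6. The alternatives were pseudocount 0.1, a filter at 5 TPM, no filter, median-of-ratios scaling, quantile normalization, and removal of mitochondrially encoded genes, Gpx3 and Kap.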

Additional observations from a re-analysis of the deposited data

How the results depend on the processing

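Of 102 differences of single genes (34 genes in 3 contrasts), 28 were at least 2-fold. None of the 28 changed sign under the 6 alternatives, and 24 stayed at least 2-fold under every alternative that compared the gene. The others were Sc5d, Insig1 and Fads1 for S1 minus S2 after removal of Gpx3, Kap and the mitochondrially encoded genes, and Sqle for S2 minus S3, at -0.91 with quantile normalization and -0.93 without those genes. With that removal the count of genes higher in S1 than in S2 was 3 in place of 6. The count lower in S2 than in S3 was 0 in place of 1 with the removal and with quantile normalization. With pseudocount 0.1, 2 genes (Insig1 and Scd2) in place of 0 were higher in S2 than in S3. The cause was not tested. The other counts stayed within 1.5 times. Another 6 differences passed 2-fold under at least 1 alternative only. No paired analysis was possible because each segment has 1 deposited value, and for the same reason no library or animal could be left out.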

Other observations

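Glycerolipid synthesis, which uses the fatty acids made or taken up, differed in its isoforms along the tubule. Gpat3, an acyltransferase that starts glycerolipid assembly, was at 60.1 TPM in S1, 0.9 TPM in S2 and 1.8 TPM in S3, and Gpam, its mitochondrial counterpart, at 16.8, 8.2 and 4.3 TPM. Mogat1, a monoacylglycerol acyltransferase, was at 0.9, 90.4 and 13.6 TPM, and its relative Mogat2 at 15.3, 34.9 and 2.8 TPM. Mogat1 and Mogat2 were highest in S2, as were the endothelial markers (60.1, 595 and 237 TPM summed), whose part was not tested. Agpat2, which adds the next acyl chain, was at 18.4, 58.7 and 65.1 TPM, and Agpat3 at 196, 334 and 410 TPM. Of 13 genes in this list, 1 was at least 2-fold higher (7.69%, all genes 6.62%) in S1 than in S2. There 3 were lower in S1 (23.1%, all genes 17.7%). Between S1 and S3, 3 were higher (23.1%, all genes 10.5%) and 3 lower in S1 (23.1%, all genes 13.1%).

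Genes that supply acetyl-CoA and NADPH to these pathways had no common order. Idh1, the cytosolic isocitrate dehydrogenase, was at 1014 TPM in S1, 218 TPM in S2 and 23.1 TPM in S3. H6pd, which makes NADPH inside the endoplasmic reticulum, was at 86.3, 14.6 and 12.1 TPM. Acly, which splits citrate to acetyl-CoA, was at 28.3, 61.6 and 51.4 TPM, and Mlxipl, the carbohydrate-responsive factor ChREBP, at 44.7, 134 and 71.9 TPM. Mid1ip1, an activator of the acetyl-CoA carboxylases, was at 17.3, 7.3 and 4.3 TPM. Of 11 genes, S1 was at least 2-fold above S2 in 3 (27.3%, all genes 6.62%) and below it in 3 (27.3%, all genes 17.7%). S1 was above S3 in 3 (27.3%, all genes 10.5%) and below it in none (all genes 13.1%). Mlxipl and Acly were highest in S2, as were the endothelial markers (60.1, 595 and 237 TPM summed), whose part was not tested.

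Among 10 compared genes of other elongation and desaturation steps, none was 2-fold higher in S1 than in S2 (all genes 6.62%). There 2 were lower in S1 (20%, all genes 17.7%). Likewise 2 were lower in S1 than in S3 (20%, all genes 13.1%), and none was higher (all genes 10.5%). Fads3, a relative of Fads1 and Fads2, was at 54.5 TPM in S1, 117 TPM in S2 and 130 TPM in S3. Elovl2, an elongase of long polyunsaturated chains, was at 33.8, 48.3 and 75.8 TPM. None of 7 genes of mitochondrial fatty acid synthesis, a separate route that supplies lipoic acid, was 2-fold apart in any contrast. The share of all genes 2-fold apart in at least 1 contrast was 33.3%.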
